A study of Homo sapiens with 2 samples.

Results

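MYC, MAX, MNT, MXD1, MXI1, MXD3, MXD4, MLX, MLXIP and MGA encode the core of the MYC, MAX and MXD network. These 10 genes were taken by name, because the antibody of the experiment was directed at Myc, and a peak was assigned to one of them when its exact symbol stood in a gene feature entry of the deposited peak annotation or was the nearest gene. Of the 10 genes, 3 had a peak, namely MAX, MNT and MXD3, with 4 of the 1900 peaks between them, and the other 7 had none. The data came from CAL27, an established cell line of human tongue cancer, infected with lentivirus to express myc-tagged KLF7, a zinc finger transcription factor of the KLF family. The study comprised 1 library immunoprecipitated with an anti-Myc antibody (D3N8F) and 1 input library without antibody, both from the same cells carrying myc_KLF7, so there were no replicates and each peak compares these 2 libraries only. The myc tag is a short peptide copied from human MYC. No library from cells lacking the tagged protein was used here, so that DNA bound by myc-KLF7 and DNA bound by endogenous MYC cannot be told apart.

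The proteins of this network share a basic helix-loop-helix leucine zipper, with which they pair and bind the E-box, a short palindrome whose canonical form is CACGTG. MAX is the common partner. MYC with MAX generally activates genes for growth and metabolism, whereas MNT and the MXD proteins (MXD1, MXI1, MXD3 and MXD4) pair with MAX on the same sites and generally repress them. MLX is a second partner protein, which pairs with the nutrient sensor MLXIP (MondoA), and MGA is a large MAX partner that joins a Polycomb repressor complex. Several of these genes are themselves regarded as subject to feedback within the network, so their own regulatory DNA is of interest in an immunoprecipitation with this antibody.

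The sequences around the 4 summits are shown first, since they differ in whether they hold CACGTG. Each line gives 100 bp either side of the summit on the plus strand of GRCh38, with CACGTG in capitals.
MAX, chr14:65102779-65102979: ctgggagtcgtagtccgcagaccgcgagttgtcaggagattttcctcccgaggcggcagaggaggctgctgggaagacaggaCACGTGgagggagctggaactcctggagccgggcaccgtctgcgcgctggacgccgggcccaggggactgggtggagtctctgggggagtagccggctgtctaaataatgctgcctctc
MNT 1, chr17:2392590-2392790: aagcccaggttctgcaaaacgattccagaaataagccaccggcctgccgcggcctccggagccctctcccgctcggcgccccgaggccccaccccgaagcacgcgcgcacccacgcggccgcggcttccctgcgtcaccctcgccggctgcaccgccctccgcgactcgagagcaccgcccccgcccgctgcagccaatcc
MNT 2, chr17:2393788-2393988: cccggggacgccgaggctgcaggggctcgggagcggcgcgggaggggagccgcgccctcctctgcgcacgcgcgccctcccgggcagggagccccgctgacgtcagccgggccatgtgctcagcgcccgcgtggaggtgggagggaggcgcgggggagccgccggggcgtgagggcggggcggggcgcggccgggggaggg
MXD3, chr5:177312207-177312407: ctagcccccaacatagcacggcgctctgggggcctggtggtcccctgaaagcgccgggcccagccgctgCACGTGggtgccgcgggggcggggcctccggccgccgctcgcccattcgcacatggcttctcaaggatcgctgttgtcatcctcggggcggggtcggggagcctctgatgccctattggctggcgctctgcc
MAX and MXD3 held CACGTG at 1 position each. Neither MNT window held it, and MNT 1 and MNT 2, named in the order of their coordinates, held the related form CACGCG (read on either strand) at 2 positions each.

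The peak at MAX had the highest pileup of the 4. It lay on chromosome 14 from 65102802 to 65103033, with 20 ChIP fragments over the summit (exact 95% Poisson interval 12.2 to 30.9) against a local background rate of 1.92 fragments. The fold enrichment, which is the pileup over that background with 1 added to each, was 7.2, and the -log10 q was 10.1. Among the 1900 peaks it ranked 205 by fold enrichment and 323 by q-value (tied peaks take their mean rank). Among the 576 promoter peaks it ranked 62 by fold enrichment, above the median promoter peak at 5.20. The only entry of the peak was the MAX promoter.

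The MAX peak sat just outside the gene. Its summit was 184 bp upstream of the gene start, the same in the deposited table and in GENCODE v44, and 362 bp upstream of the start of the canonical transcript. All 19 annotated MAX transcripts start downstream of the summit, 16 of them within 500 bp. Neither an annotated exon nor another gene overlapped it. On chromosome 14 the next peak, at FUT8-AS1, was 310 kb from the MAX start.

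MNT, a repressor that pairs with MAX and is expressed in most tissues, was the only member with 2 peaks, against 0.45% of protein-coding genes with at least 2. MNT 1 lay on chromosome 17 from 2392557 to 2392986, with 11 fragments at the summit (5.49 to 19.7) over a background rate of 1.5, which gave a fold enrichment of 4.81 at -log10 q 3.33. MNT 2 lay from 2393785 to 2394030, with 18 fragments (10.7 to 28.4) over a background rate of 1.56, which gave a fold enrichment of 7.43 at -log10 q 9.62. MNT 2 therefore had the highest fold enrichment of the 4 peaks and ranked 43 among the 474 intron peaks, whereas MNT 1 ranked 314 among them. The median intron peak had a fold enrichment of 5.19, between the values of the 2 MNT peaks. Their summits were 1198 bp apart, and their Poisson intervals overlapped.

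**Figure D1:**
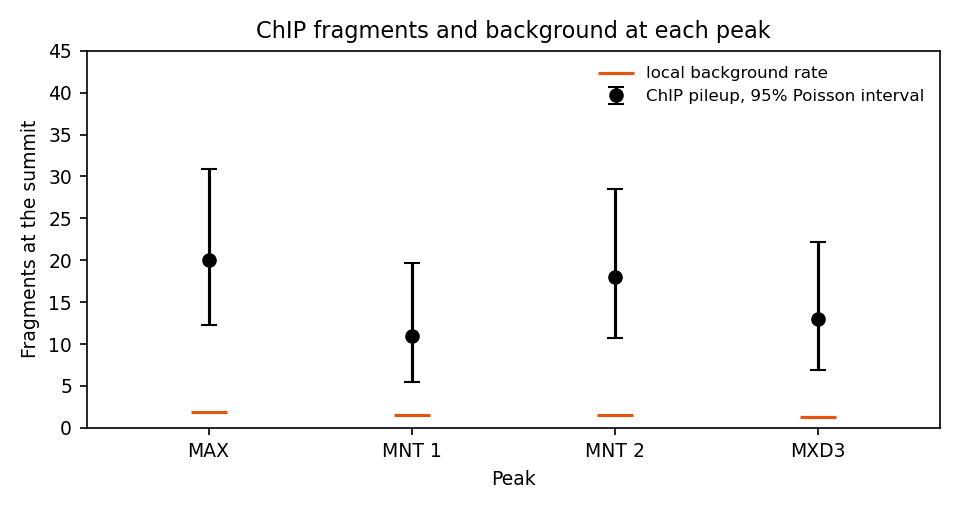
ChIP pileup at each of the 4 summits (points, fragments) with its exact 95% Poisson interval (bars, counting error only) and the local background rate (orange marks). The pileups run from 11 to 20 fragments and the background rates from 1.33 to 1.92, and the 4 intervals overlap one another.

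Both MNT peaks were far from the gene start. The summits lay 8414 bp (MNT 1) and 7216 bp (MNT 2) downstream of the GENCODE v44 start, in intron 4 of the canonical transcript, which has 6 exons and whose intron 4 is 5993 bp long. Each summit was, however, close to the annotated start of a shorter MNT transcript without a defined coding sequence. MNT 1 was 70 bp downstream of the start of MNT-204, and MNT 2 was 58 bp upstream of the start of MNT-202. No exon covered either summit, and 1 exon overlapped each peak. Both entries named the MNT intron, while the nearest gene given for MNT 1 was AC006435.1. At the main MNT start no peak was listed.

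**Figure D2:**
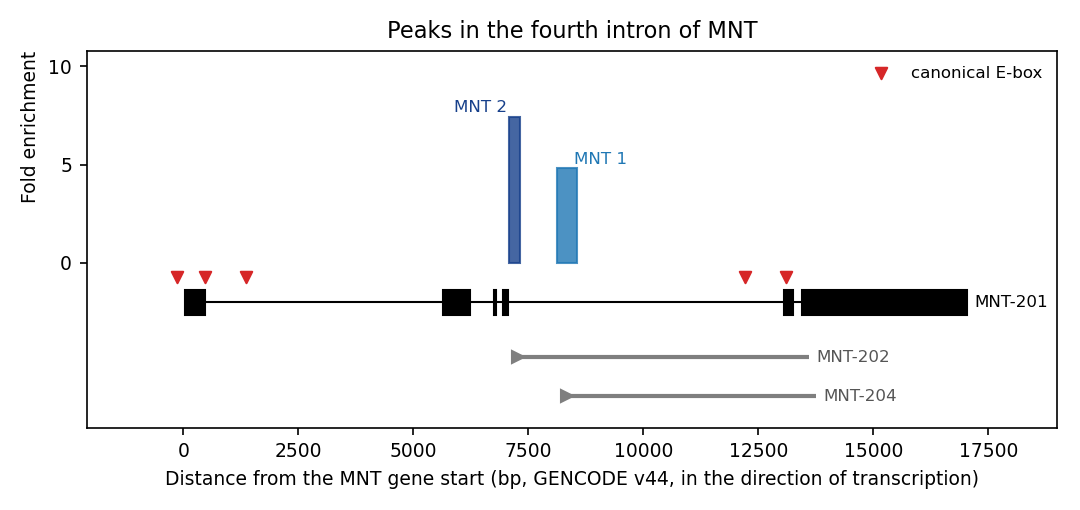
Map of MNT by distance from its gene start (bp, in the direction of transcription), with the exons of the canonical transcript MNT-201 (black boxes), the spans of 2 shorter transcripts (grey, arrowheads at their starts), canonical E-boxes (red triangles) and the 2 peaks, whose height is the fold enrichment. The peaks stand in intron 4 beside the starts of MNT-202 and MNT-204, and none of the 5 E-boxes lies under them.

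MXD3, an MXD family repressor linked to proliferating cells, had 1 peak, whose pileup and fold enrichment were between those of the MNT peaks. It lay on chromosome 5 from 177312245 to 177312511, with 13 fragments (6.92 to 22.2) over a background rate of 1.33, which gave a fold enrichment of 6.0 at -log10 q 5.58. It ranked 488 of 1900 by fold enrichment and 169 among the 576 promoter peaks. Although the entry named the MXD3 promoter, the summit was 450 bp downstream of the annotated gene start. Only 1 of the 9 MXD3 transcripts starts upstream of the summit. The other 8 start downstream of it, including the canonical transcript, whose start was 409 bp away. Counted from the canonical start, the peak was thus upstream, as at MAX. No exon and no other gene overlapped it.

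**Figure D3:**
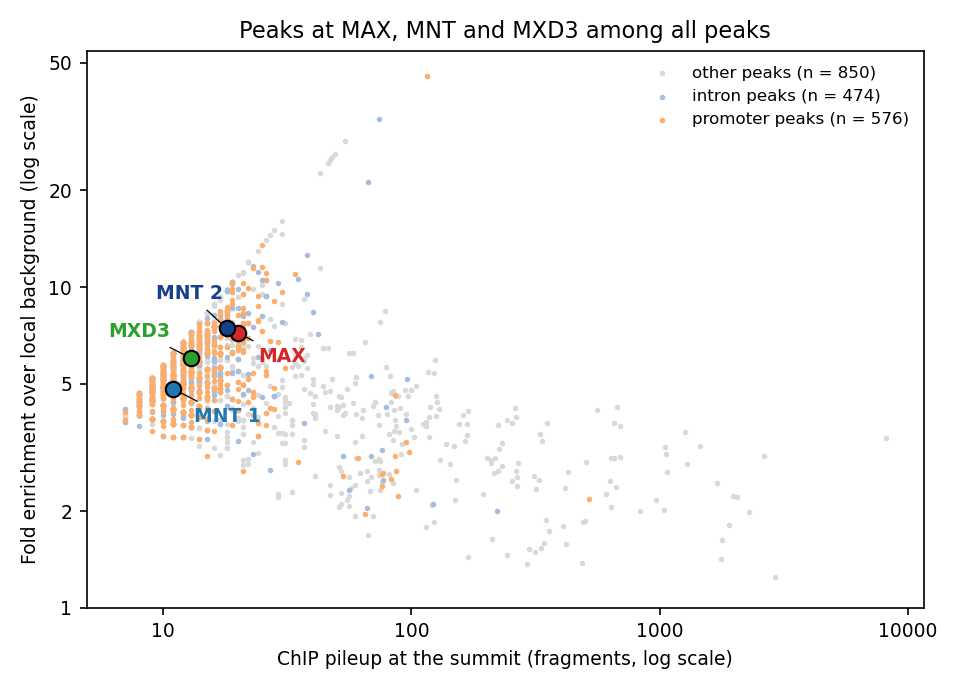
Fold enrichment against ChIP pileup of all 1900 peaks (both axes on log scales), with promoter peaks in orange, intron peaks in light blue and the rest in grey. MAX, MNT 2 and MXD3, at fold enrichments of 7.2, 7.43 and 6.0, lie above the median of 5.06, and MNT 1, at 4.81, lies below it.

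As a set, 3 of 10 genes (30%, exact 95% Clopper-Pearson interval 6.67 to 65.2%) had a peak entry, compared with 6.93% of 20007 protein-coding genes. The 6.93% lay inside that interval, which treats the genes as independent random draws and is not a test. By promoter entries the count was 2 of 10, MAX and MXD3, against 2.13%, and no interval was computed for that count. By summits within 2000 bp of the gene start it was the same 2 genes, against 4.7%. MAX, MNT and MXD3 each kept a peak at a q-value under 0.001, at a fold enrichment of at least 5 and at a pileup of at least 10. Of the MNT peaks, however, only MNT 2 remained at a fold enrichment of at least 5, or where only the nearest gene counted. The 10 genes were not drawn at random and their number is small, so nothing more was read from the difference. Gene length differed little, with a median of 31.1 kb for the members and 27.5 kb for all protein-coding genes. All 31-base words under the 4 peaks occurred at a single place in GRCh38, and none of the peaks lay in a dense cluster of peaks.

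The genes without a peak were MYC itself, MXD1, MXI1, MXD4, MLX, MLXIP and MGA. MYC, on chromosome 8 from 127735434 to 127742951, had 0 summits within 3 Mb, and the nearest peak, at RNF139, was 3260 kb upstream of its start. For MXD4 the nearest peak, at WFS1, was 4020 kb away. For the other 5 genes the distances ran from 146 kb at MXI1 to 793 kb at MLXIP, with 189 kb at MXD1, 204 kb at MGA and 266 kb at MLX. These nearest peaks had pileups of 9 to 18 fragments. The lowest pileup in the list was 7 fragments, and the median was 13. The detection limit at these genes was not measured, and a missing peak does not show that no protein was bound.

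The E-box sites at MAX and MXD3 were close to the summits. At MAX, CACGTG occupied 65102861 to 65102866 with its centre 15.5 bp from the summit. At MXD3 it occupied 177312276 to 177312281 with its centre 28.5 bp from the summit. Over all 360 peaks that held CACGTG within 100 bp of the summit, the median distance of the closest site was 26.5 bp, so that 1 site was nearer and 1 farther than the median. CACGTG was present in 26.8% of promoter peaks (571 on the assembled chromosomes) and in 21.9% of the 474 intron peaks. Among the 153 promoter peaks with CACGTG, whose median fold enrichment was 5.48, MAX ranked 33 and MXD3 ranked 62.

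The MNT peaks differed from these in sequence. In MNT 1 the closer CACGCG spanned 2392689 to 2392694, across the summit, with its centre 1.5 bp away, and the other was 13.5 bp away. In MNT 2 the sites were 29.5 and 31.5 bp away, 1 on each side. CACGCG occurred within 100 bp of the summit in 17.3% of intron peaks, and 16 of the 474 (3.38%) held at least 2. The window of MNT 2 had a GC content of 83.6%, the highest of the 1854 peaks on these chromosomes, and that of MNT 1 had 73.6%, compared with a median of 62.2% for intron peaks. MAX, with 65.2%, and MXD3, with 71.6%, stood on either side of the promoter median of 69.7%. A site as short as CACGCG is more frequent in GC-rich DNA, and whether base composition accounts for its presence here was not tested.

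GC boxes, to which KLF and SP factors bind, were found under some of the same peaks. MXD3 held GGGGCGGGG at 2 positions within 100 bp of the summit, with centres 12 and 57 bp away, together with CACGTG. Of the 571 promoter peaks, 28 (4.9%) held both sequences. MNT 2 held GGGGCGGGG at 1 position, 80 bp away, and MNT 1 held the shorter GGGCGG at 3 positions, the closest 54.5 bp away. The MAX window held neither GGGCGG nor GGGGCGGGG. No other form of site that KLF factors may bind was searched for, so these counts do not show that such sites are absent. GGGCGG was present in 68.1% of promoter peaks and 44.1% of intron peaks, and GGGGCGGGG, which contains it, in 22.2% and 10.3%. Which peaks held a GC box depended on the window. Within 50 bp of the summit neither MNT peak held GGGCGG, and within 250 bp MAX held it at 3 positions, the closest 126.5 bp away.

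Most E-boxes at these genes had no peak. Counted over the gene body and the 2000 bp before it, the 9 genes other than MYC, whose sequence was not analysed here, held 78 CACGTG sites, 22 of them in MGA and 20 in MAX. Of the 78, only the 2 described above, at MAX and MXD3, had a summit within 100 bp. Within 2000 bp of the GENCODE v44 gene starts there were 16 sites in 8 of the 9 genes, MXD1 having none. The same 2 of these 16 had a summit within 100 bp, compared with 228 of 10527 CACGTG sites (2.17%) within 2000 bp of protein-coding gene starts outside chromosome 8. MAX alone had 4 of the 16.

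**Figure D4:**
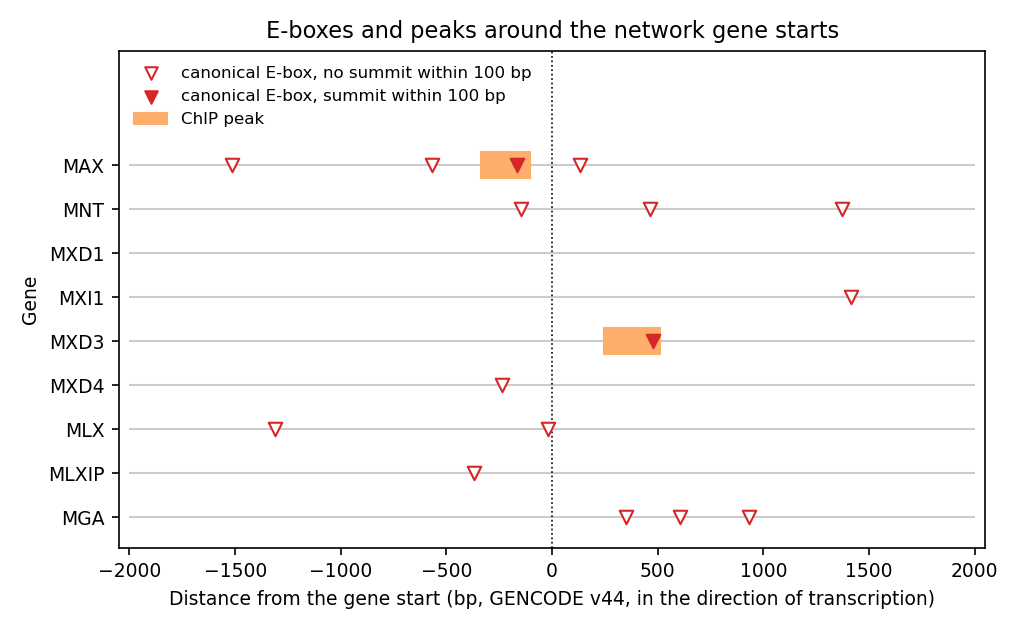
Canonical E-boxes (triangles) and peaks (orange boxes) within 2000 bp of the GENCODE v44 gene starts of 9 network genes, by distance from that start (bp, in the direction of transcription). Filled triangles have a summit within 100 bp. Each start is the outermost of any annotated transcript, so sites near starts farther inside a gene, as at MXD1, can fall outside the map. The 2 filled triangles are at MAX and MXD3, and the other 14 sites, at 7 genes including MAX, are open.

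The sites at MAX and MXD3 are printed beside the sites without a summit that lay closest to the start of 5 other members, so that their flanks can be compared. All were selected for CACGTG, and not all of the 16 sites are shown. Each line gives the bases either side of CACGTG (capitals) on the plus strand of GRCh38.
MAX, at the summit, chr14:65102849-65102878: gggaagacaggaCACGTGgagggagctgga
MXD3, at the summit, chr5:177312264-177312293: gcccagccgctgCACGTGggtgccgcgggg
MNT, without a summit, chr17:2401236-2401265: ccggcgcgcgcaCACGTGgcccgggcaggg
MXD4, without a summit, chr4:2262330-2262359: gcttagcaacagCACGTGgtggcccggccc
MLX, without a summit, chr17:42567038-42567067: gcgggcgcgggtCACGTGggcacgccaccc
MLXIP, without a summit, chr12:122078371-122078400: acccgcacccacCACGTGgagccggccggg
MGA, without a summit, chr15:41621468-41621497: gcttgcgaccagCACGTGacccgaactggc
The MLX site was 19.5 bp upstream of the gene start, the closest of the 16. The sites of MNT, MXD4 and MLXIP lay 146.5, 235.5 and 370.5 bp upstream, and that of MGA 348.5 bp downstream. The same 6 bases close to a gene start were therefore found with a peak at some of these genes and without one at others. Both cases also occurred within MAX, where CACGTG at 65102563, 129.5 bp downstream of the start, was 313.5 bp from the summit.

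RefSeq promoter windows, from 250 bp before to 50 bp after a gene start, were held for 9 of the 10 genes, in 14 windows. MYC had no entry. CACGTG was present in windows of 3 members (MNT, MXD4 and MLX), and GGGCGG in at least 1 window of all 9. Over 15345 protein-coding genes with such windows the shares were 10.9% and 65.1%. A peak overlapped 0 of the 14 windows, compared with 851 of 35116 windows (2.42%) in all. The MAX and MXD3 peaks fell outside their windows, and the MNT peaks were in the intron. Among these 15345 genes, 12.4% of the 1680 with CACGTG in a window had a peak entry, against 6.84% of the 13665 without, a difference that was not tested.

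Around the network, other genes of the same pathway were taken from a list of 37 genes. Peak entries were found for 4 of them (10.8%), against 6.93% of protein-coding genes. MYCN, MYCL and MLXIPL, relatives of the members, had none, nor did PVT1 and CASC11, the neighbours of MYC. The 3 described here are named after their values were seen. KAT2A (GCN5), an acetyltransferase brought to genes by MYC and among 18 MYC partner and turnover genes, had a peak of 15 fragments, enriched 7.09-fold. That peak was entered as exon and 5′ UTR of KAT2A, and also as promoter of HSPB9 and intron of AC099811.2. Among 14 other helix-loop-helix genes whose proteins bind E-boxes, SREBF1, a regulator of lipid synthesis, had an intron peak of 15 fragments, enriched 6.73-fold, and USF2 had one of 11 fragments, enriched 3.75-fold. L3MBTL2, PCGF6 and E2F6, the partners of MGA in its repressor complex, had none. Of these 3 peaks, only that of SREBF1 held CACGTG within 100 bp of the summit.

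Genes long used as examples of MYC targets, mostly of ribosome production and metabolism, were read in the same way. Of 20 such genes, 8 (40.0%) had a peak entry, against 6.93% of protein-coding genes, and 1, APEX1, had a promoter entry, against 2.13%. NCL, which encodes nucleolin, had the highest fold enrichment, 10.5, with a pileup of 26 fragments. LDHA, lactate dehydrogenase A, followed with 7.84, and then NPM1 (nucleophosmin) with 6.75, GNL3 (nucleostemin) with 5.19 and NOP56, a snoRNP core protein, with 5.05. Several of these peaks had another gene as their nearest, namely SNORD82 for the NCL peak, PBRM1 for the GNL3 peak and MIR1292 for the NOP56 peak. The summits at NCL and GNL3 were 19824 and 4942 bp downstream of the GENCODE v44 gene start, which is the outermost start of any annotated transcript. Distances to the starts of single transcripts were not computed for these genes, so a start closer to either summit may exist. The GNL3 peak was entered as PBRM1 promoter and GNL3 exon. CACGTG was within 100 bp of the summit at 6 of the 8 genes, the exceptions being NOP56 and ENO1, compared with 19.4% of all 1854 peaks on the assembled chromosomes. The 8 peaks were classed as promoter, 5′ UTR or intron peaks, and in these classes the shares were 26.8%, 23.6% and 21.9%. Intergenic peaks, at 7.37%, lower the share over all peaks. The list was written from general knowledge with earlier results known, and its genes are active in most growing cells, so that its share is given without a test. The peaks of MNT 2 and MAX lay between those of LDHA and KAT2A in fold enrichment, and MYC itself and MYCN had no peak to place in this order.

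**Figure D5:**
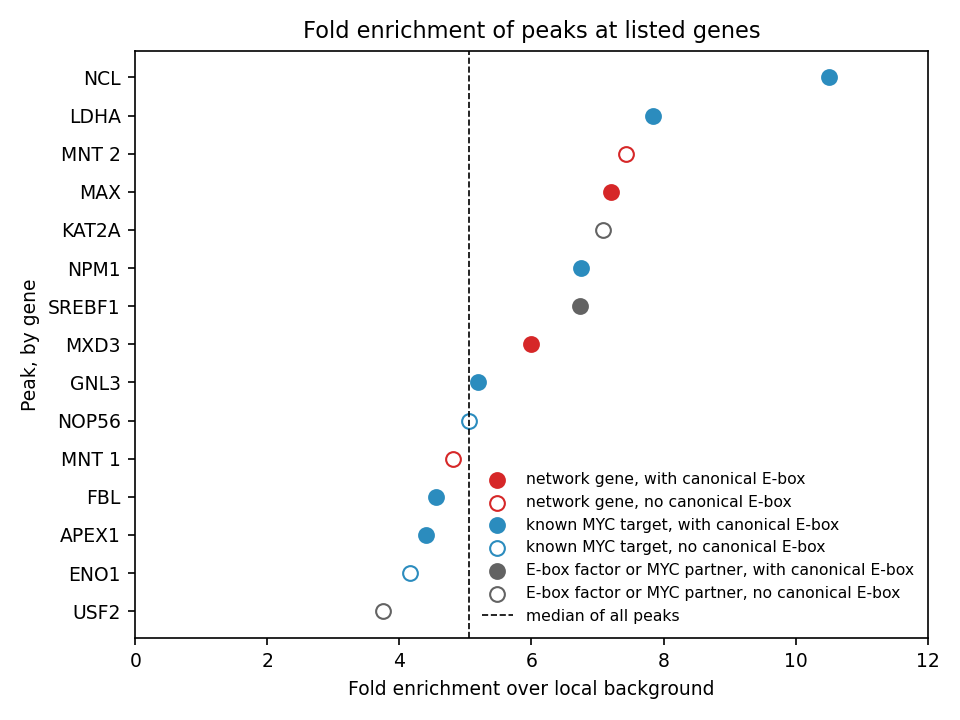
Fold enrichment of the 4 peaks at network genes (red), 8 at known MYC targets (blue) and 3 at E-box factor or MYC partner genes (grey), in rising order. Filled points hold CACGTG within 100 bp of the summit, open points do not, and the dashed line is the median of all peaks, 5.06. NCL, at 10.5, is the highest, and only NCL and LDHA stand above MNT 2 and MAX.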

How the data were processed

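ChIP-seq was available for 1 ChIP and 1 input library of CAL27 cells. The authors trimmed reads with Trimmomatic, mapped them with BWA, removed duplicates with Samtools and used MACS2 to list peaks at a q-value threshold of 0.05. Of the deposited values, the pileup is a signal, counting ChIP fragments over the summit, the fold enrichment is a ratio to the local background, and significance is given as -log10 p and -log10 q. No read totals were used. The labels name hg38, and of 1381 gene identifiers listed, 1369 were on the same chromosome in GENCODE v44 and 818 had the same start.

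The background rate was recovered from pileup and fold enrichment. Table gene starts count from 0 and were shifted by 1. Table symbols were matched to GENCODE v44 names (nearest genes by identifier) or unambiguous RefSeq synonyms, antisense and intronic RNAs never by their host gene. Motifs were searched on both strands within 100 bp of the summit in GRCh38, with a search tested on simulated data. Dense clusters were at least 5 peaks with neighbours within 100 kb. Peaks with several entries were classed in the order promoter, UTR, exon, intron. Without replicates no test was run. Intervals cover counting error only. Named genes are the members, a list of 37 E-box factor and MYC partner genes and 20 known MYC targets (up to 5 by fold enrichment). For 1 gene of the 37 the values are not reported here. Members and lists were chosen with earlier results of these data known. Python 3.11.15, pandas 2.3.3, numpy 2.4.6, scipy 1.17.1, pysam 0.24.0 and matplotlib 3.10.9 were used.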

Additional observations from a re-analysis of the deposited data

How the results depend on the processing

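Of 22 values recomputed under other choices for 9 results, 15 did not move by more than 1.5 times. Among these 15 were the distances of the 4 peaks to gene starts in a second, nearly identical annotation. The fall from 3 members to 2 by promoter entries was also counted as not moved, so the tally says little about stability. With the form CACGCG added to CACGTG, all 4 peaks at network genes held either form, against 2 with CACGTG alone. Either form was held by 47.5% of promoter peaks and 35% of intron peaks. The share of protein-coding genes with a peak was 2.13% by promoter entries and 4.25% at a fold enrichment of at least 5. By promoter entries only 1 gene of the wider list and 1 known MYC target were left, and at a fold enrichment of at least 5 the counts were 2 and 5. MAX, MNT and MXD3 kept a peak under each threshold tried on q-value, fold enrichment and pileup. MNT was lost where only promoter entries or summits within 2000 bp of the gene start counted. The peak MNT 1 alone was lost at a fold enrichment of at least 5 and where only the nearest gene counted. With 1 ChIP library, no replicate could be left out, and at pileups of 11 to 20 fragments the order of the 4 peaks is not settled.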

Other observations

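In the authors' transcription factor column, 12 peaks carried the family bHLH. The label is part of the annotation and does not show which protein was bound at a peak. Peaks whose nearest gene was CAMKK2, PABPC1 or MYO9A carried it too. The 12 included MNT 2, MAX and MXD3, while MNT 1, whose nearest gene is AC006435.1, carried no label. TFAP4, a helix-loop-helix factor outside the lists and picked after its values were seen, had 2 such peaks in an intron, with fold enrichments of 7.51 and 5.48 and pileups of 16 and 13 fragments.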
